A study of Pinus pinaster with 8 samples.

Results

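Transcripts with a higher signal in opposite xylem (Ox) than in compression xylem (Cx) of maritime pine were represented by 121 of the 2910 spots of a cDNA microarray, or 4.16%. The spots were chosen by their own ratios. A spot was taken when its mean log2(Ox/Cx) over 4 hybridizations was at least 0.585, which is 1.5-fold, and when all 4 hybridizations lay above 0. A mean at that limit or above was found in 130 spots, and 9 of these were left out because a hybridization fell to 0 or below. The ratios of the 121 spots are therefore given as a description, with no test of Ox against Cx. On the opposite side, 286 spots were lower in Ox under the same rule with its sign turned.

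Developing secondary xylem was scraped from field-grown adult trees of Pinus pinaster whose stems had been kept bent at 45 degrees for 2 months. Cx came from the side of the stem that forms compression wood and Ox from the other side of the same stem, so that no upright, unbent tree entered the comparison. The labels number the trees 1 to 4, with ages of 25, 35, 28 and 28 years, and give Cx in the dye Cy3 and Ox in Cy5 for 4 data columns and the reverse for the other 4. The columns numbered 1 and 2, and those numbered 3 and 4, of an orientation correlated at r = 0.969 to 0.984 over all spots, against 0.635 to 0.875 for the 24 other pairs of columns. They were averaged as the duplicate printings on a slide, which gave hybridizations 1 and 2 (Cx in Cy3) and 3 and 4 (Ox in Cy3). The direction of the ratios rests on the study's listing of its fold changes as Ox over Cx, since the methods give the dyes in another order than the deposited sign. Which tree each hybridization carried cannot be told from the columns, and the p-values below measure the spread between 4 hybridizations.

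Conifers that lean lay down compression wood on the lower side of the stem, with rounded, thick-walled and heavily lignified tracheids. Opposite wood forms on the upper side at the same time, with tracheids that are less lignified and closer to those of normal wood. Developing xylem as a whole is a tissue of cells that enlarge, build a secondary wall and then die, and so holds the machinery of protein synthesis, folding and breakdown, of water uptake and of wall building.

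The study's listing of expressed sequence tags (ESTs) named 32 of the clones behind these spots with a BlastX description, and each matched 1 spot by its mean ratio. For 4 of the clones a second table of the study carried the value of another spot, also among the 121, so that 36 spots had a description. Whether both spots hold the clone was not tested. A clone name with no description was found for 48 further spots and no name for 37. The listing used here was ordered by functional category and ended within the stress category, so clones of later categories (such as cell wall, development and unclassified proteins) have no description here. A spot with no name may hold a clone not listed in the part used here or a printed control. It may also be a spot that the authors' intensity filter removed, since the study's table lists only spots that passed it.

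The listed ESTs show what several of these spots detect. The clone described only as a chaperone, GEM-045-D02, and the low molecular weight heat-shock protein clone, GEM-009-F06, carry the same coding stretch with no gap, and capitals mark the 64 of 75 bases (85.3%) that are identical in both.
GEM-045-D02: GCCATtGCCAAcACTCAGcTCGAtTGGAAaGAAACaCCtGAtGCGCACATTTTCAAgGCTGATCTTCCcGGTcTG
GEM-009-F06: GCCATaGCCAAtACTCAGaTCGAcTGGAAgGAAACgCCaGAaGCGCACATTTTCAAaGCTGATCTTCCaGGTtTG
Translated, 23 of the 25 codons of the stretch gave the same residue in both clones, so the clones differ in sequence but are closely similar over this part. The water channel clone GEM-021-G08 is shown because its listed stretch reaches the first Asn-Pro-Ala box, the part of aquaporins that lines the pore, in capitals.
GEM-021-G08: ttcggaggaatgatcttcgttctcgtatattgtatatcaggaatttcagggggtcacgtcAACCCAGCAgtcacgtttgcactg
The histone clone GEM-056-G05 carries in capitals the codons of the signature stretch by which H2A proteins are recognised.
GEM-056-G05: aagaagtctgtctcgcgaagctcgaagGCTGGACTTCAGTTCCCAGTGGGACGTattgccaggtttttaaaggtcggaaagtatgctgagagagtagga

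Translation factors held more described spots than any other class, 9 of 36. These include second spots, and by clones the class had 6, against 5 in the carbon compound class. The ESTs of the translation factors show how far spots are separate measurements. Of the initiation factor 4A clones, GEM-074-E06 carries the ATP-binding motif I of this RNA helicase and GEM-074-B06 its motif VI, in capitals.
GEM-074-E06: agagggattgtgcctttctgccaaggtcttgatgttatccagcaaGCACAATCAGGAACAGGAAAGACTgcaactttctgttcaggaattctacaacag
GEM-074-B06: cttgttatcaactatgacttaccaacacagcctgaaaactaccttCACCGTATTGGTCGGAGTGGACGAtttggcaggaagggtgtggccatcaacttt
The listed parts come from different ends of the coding sequence and share no run of identical bases longer than 9, so that they cannot show whether the clones derive from 1 gene or from 2. The elongation factor clones GEM-039-A10 and GEM-053-B10 do overlap. They share an identical run of 173 bases, whose first 60 are in capitals after the 30 bases before it, and the study placed them in the same contig.
GEM-039-A10: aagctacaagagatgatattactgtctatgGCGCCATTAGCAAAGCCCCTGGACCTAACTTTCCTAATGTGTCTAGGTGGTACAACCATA
GEM-053-B10: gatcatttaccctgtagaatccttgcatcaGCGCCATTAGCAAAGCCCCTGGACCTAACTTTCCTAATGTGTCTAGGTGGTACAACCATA
Labelled RNA of either sequence can bind both spots, so these clones are not independent measurements, although each is counted as a clone below. The calmodulin-like clone GEM-051-G11 holds a calcium-binding EF-hand loop, and the dehydrin clone GEM-054-H11 holds the run of serine codons typical of many dehydrins, each in capitals.
GEM-051-G11: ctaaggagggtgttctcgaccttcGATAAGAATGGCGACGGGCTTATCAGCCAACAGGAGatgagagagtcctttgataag
GEM-054-H11: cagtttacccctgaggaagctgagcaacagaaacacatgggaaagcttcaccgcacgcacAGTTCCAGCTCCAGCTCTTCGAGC
The G+C share of the listed stretches ran from 32.5% to 53.9% over the 32 clones, with a median of 45.5%, against a median of 44.9% over the 226 listed clones of the same array that were lower in Ox.

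Most of the 121 spots were only modestly higher in Ox. Their mean log2(Ox/Cx) had a median of 0.85 (1.8-fold), with quartiles of 0.70 and 1.06, and 82 of them lay below 2-fold. A mean of at least 2 on the log2 scale was reached by 5 spots, and 1 spot stood apart at 4.87 (29.3-fold) with the next at 2.97. On the opposite side the median was -0.89 and the most extreme mean -2.85. The highest ratio in either direction was thus on the Ox side, but this rests on the 1 spot at 4.87, which has no clone name. Without that spot the extremes were 2.97 and -2.85. The ratio compares equal amounts of labelled RNA from 2 tissues, and a higher ratio cannot separate more RNA per cell from a larger share of the cells that hold it.

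**Figure D1:**
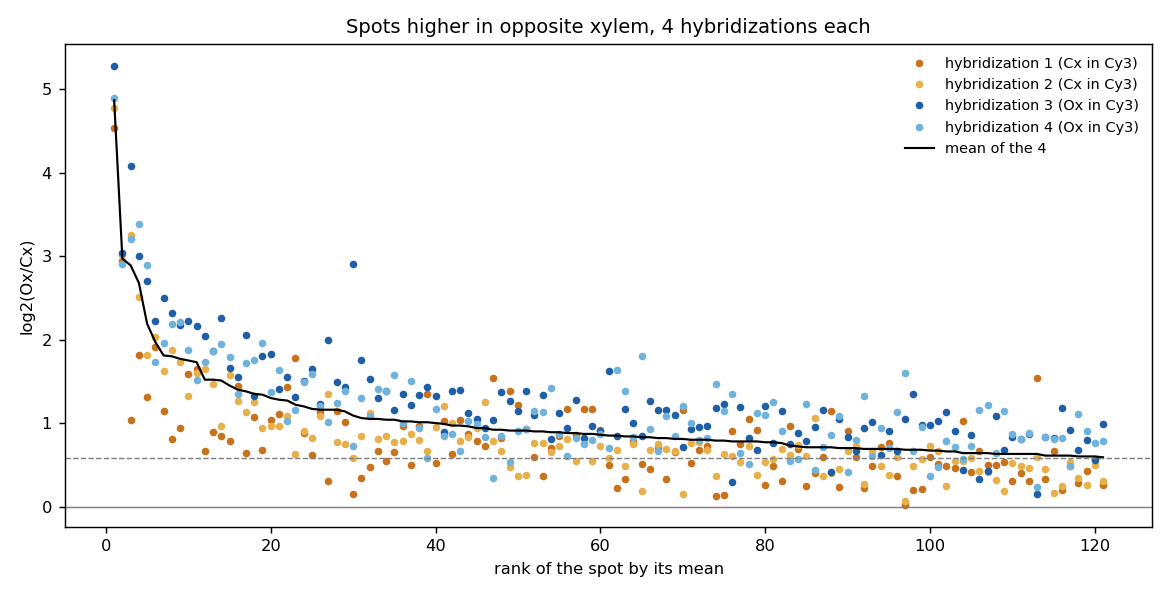
Log2(Ox/Cx) of the 121 spots higher in opposite xylem, ranked by their mean (black line), with a point for each of the 4 hybridizations. The dashed line is the 1.5-fold limit, and the blue points (Ox in Cy3) mostly lie above the orange ones (Cx in Cy3).

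A robust limma fit over all 2910 spots, with Benjamini-Hochberg adjustment, called 97 spots (3.33%) higher in Ox when the 1.5-fold limit was joined to an adjusted p of 0.05 or less. Of these, 95 were among the 121, and 2 were outside. With an adjusted p of 0.001 or less, 6 spots (0.206%) were called, all of them among the 121. The rule used the same contrast, so nothing is read from these counts about the spots. A change of the fit or scale moved the stricter count widely, from 6 spots to 22 with least squares and to 0 after scaling the columns.

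The highest ratio belonged to spot Q7H1, which has no clone name in the tables used. Its log2(Ox/Cx) was 4.54, 4.77, 5.28 and 4.90 in hybridizations 1 to 4, a mean of 4.87 ± 0.31 (SD, n = 4). All 4 values lay above every value of the other 120 spots, and the orientation means were 4.66 with Cx in Cy3 and 5.09 with Ox in Cy3. The array also carried printed spike controls. Whether Q7H1 is such a control, or a spot that the authors' intensity filter removed, was not tested.

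The second spot, Q4D15 (clone GEM-040-G11, no description in the listing used), was the most repeatable of all 121. Its log2(Ox/Cx) was 2.94, 3.01, 3.04 and 2.91, a mean of 2.97 ± 0.06 (SD, n = 4), or 7.86-fold. Clone GEM-003-B08 at spot Q1L6 had 1.81, 2.51, 3.00 and 3.39, a mean of 2.68 ± 0.68 (SD, n = 4). There the values with Ox in Cy3 lay above both others. Spot Q6I16 had the same order at 1.31, 1.82, 2.7 and 2.9, whereas Q4O12 was even across dyes at 1.91, 2.03, 2.22 and 1.73. The other leading spots without a description were Q5M2 (GEM-046-H02) with a mean of 1.81, Q1M2 with 1.80, Q3H1 (GEM-027-H01) with 1.75, Q7J5 with 1.73 and Q6H10 (GEM-058-D04) with 1.52. All 4 hybridizations of these 5 spots lay between 0.67 and 2.50.

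Protein folding held the described spot with the highest ratio, and its 3 clones lay between 1.14 and 2.89 (median 1.30). The median over all 2910 spots was 0.01, but the rule itself sets every chosen spot above it. The clone described as a chaperone, GEM-045-D02 at spot Q5B6, had log2(Ox/Cx) values of 1.04, 3.25, 4.08 and 3.21. Hybridization 1 lay far below the other 3, and the mean of 2.89 (7.44-fold) carried the largest spread of all 121 spots, an SD of 1.30 (n = 4). The related heat-shock clone GEM-009-F06 at spot Q2H1 had 1.04, 0.97, 1.83 and 1.37, a mean of 1.30 ± 0.39 (SD, n = 4). Small heat-shock proteins hold unfolded proteins and keep them from clumping. Both clones thus gave 1.04 in hybridization 1 and parted in the other 3. The third clone, GEM-043-B07 at spot Q4E24, is described as the co-chaperone p23, which works with the heat-shock protein HSP90, and had 1.01, 0.75, 1.43 and 1.38. On the Cx side 5 folding clones of the listing lay between -1.39 and -0.63, so descriptions of this class occurred in both directions.

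The water channel clone had the highest described ratio after the chaperone. GEM-021-G08 at spot Q2B9 is described as PIP2A, an aquaporin that carries water across the plasma membrane. It had 0.94, 1.73, 2.17 and 2.21 in hybridizations 1 to 4, a mean of 1.77 ± 0.59 (SD, n = 4), or 3.40-fold. Hybridization 1 was again the lowest. No clone of the listing that was lower in Ox had a water channel description.

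Histone H2A, a core histone around which DNA is wound, was listed with the values of a pair of spots. Spot Q2I9 had 0.89, 1.47, 1.86 and 1.86, and spot Q3P16 had 0.78, 1.58, 1.66 and 1.79. Their means of 1.52 and 1.45 differed by 0.07, and in no hybridization did the spots differ by more than 0.20. The value of each spot is listed for clone GEM-056-G05 in a different table of the study, and whether both spots hold it was not tested. Hybridization 1 was the lowest on both. The 3 chromatin and cell cycle clones on the Cx side lay between -1.27 and -0.77.

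Clones for protein breakdown were 4, with mean log2(Ox/Cx) between 0.90 and 1.34 (median 1.07). The ubiquitin carrier protein clone GEM-086-A07 at spot Q6O20, of the enzymes that pass ubiquitin on to proteins to be degraded, had 0.68, 0.94, 1.80 and 1.96. The leucine aminopeptidase clone GEM-041-F03 at spot Q4J17, an enzyme that trims residues from the start of proteins, had 0.62, 0.82, 1.65 and 1.59. In both, the hybridizations with Ox in Cy3 lay clearly above those with Cx in Cy3. Another aminopeptidase, the Xaa-Pro aminopeptidase GEM-004-A07 at Q1L13, had a mean of 0.97 ± 0.31 (SD, n = 4). The cysteine proteinase inhibitor GEM-056-F04 at Q6K4, a protein that blocks proteases rather than cutting proteins, had 0.90 ± 0.27 (SD, n = 4). On the Cx side 4 clones of this class lay between -1.88 and -0.63.

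Translation factors held 6 clones on 9 spots, all with modest ratios between 0.63 and 0.94 (median 0.78). Elongation factor clone GEM-004-F10 at spot Q1I10 was the highest, with 0.79, 0.94, 1.051 and 0.99, with an SD of only 0.11 (n = 4). Initiation factor 4A, the helicase that unwinds mRNA before translation starts, had 0.84, 0.72, 1.12 and 0.87 at spot Q2M1 and 0.78, 0.75, 1.00 and 0.83 at spot Q3L24. Both spots carry a value listed for GEM-074-E06, and they differed by at most 0.13 in any hybridization. The 4A-like clone GEM-074-B06 at Q7D18 was lower, with a mean of 0.63 ± 0.21 (SD, n = 4). The spots with values listed for the translation initiation factor GEM-020-F09 had means of 0.88 (Q1P24) and 0.69 (Q4I1), with a largest difference between them of 0.38.

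The overlapping elongation factor clones gave similar means but less even profiles. GEM-039-A10 at spot Q3I5 had 0.92, 0.38, 0.68 and 1.12. The spots with values listed for GEM-053-B10 had 1.15, 0.40, 0.41 and 0.86 (Q3D12) and 0.71, 0.48, 0.62 and 0.94 (Q2E17). Hybridization 2 was the lowest on each of the 3 spots. Translation factors were found on the other side too, where 2 clones had -1.60 and -2.45. Only 1 ribosomal protein clone was described among the 121, S20 of the small subunit (GEM-102-A05 at Q3G20, mean 0.90 ± 0.43, SD, n = 4), against 7 on the Cx side between -0.84 and -0.59.

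**Figure D2:**
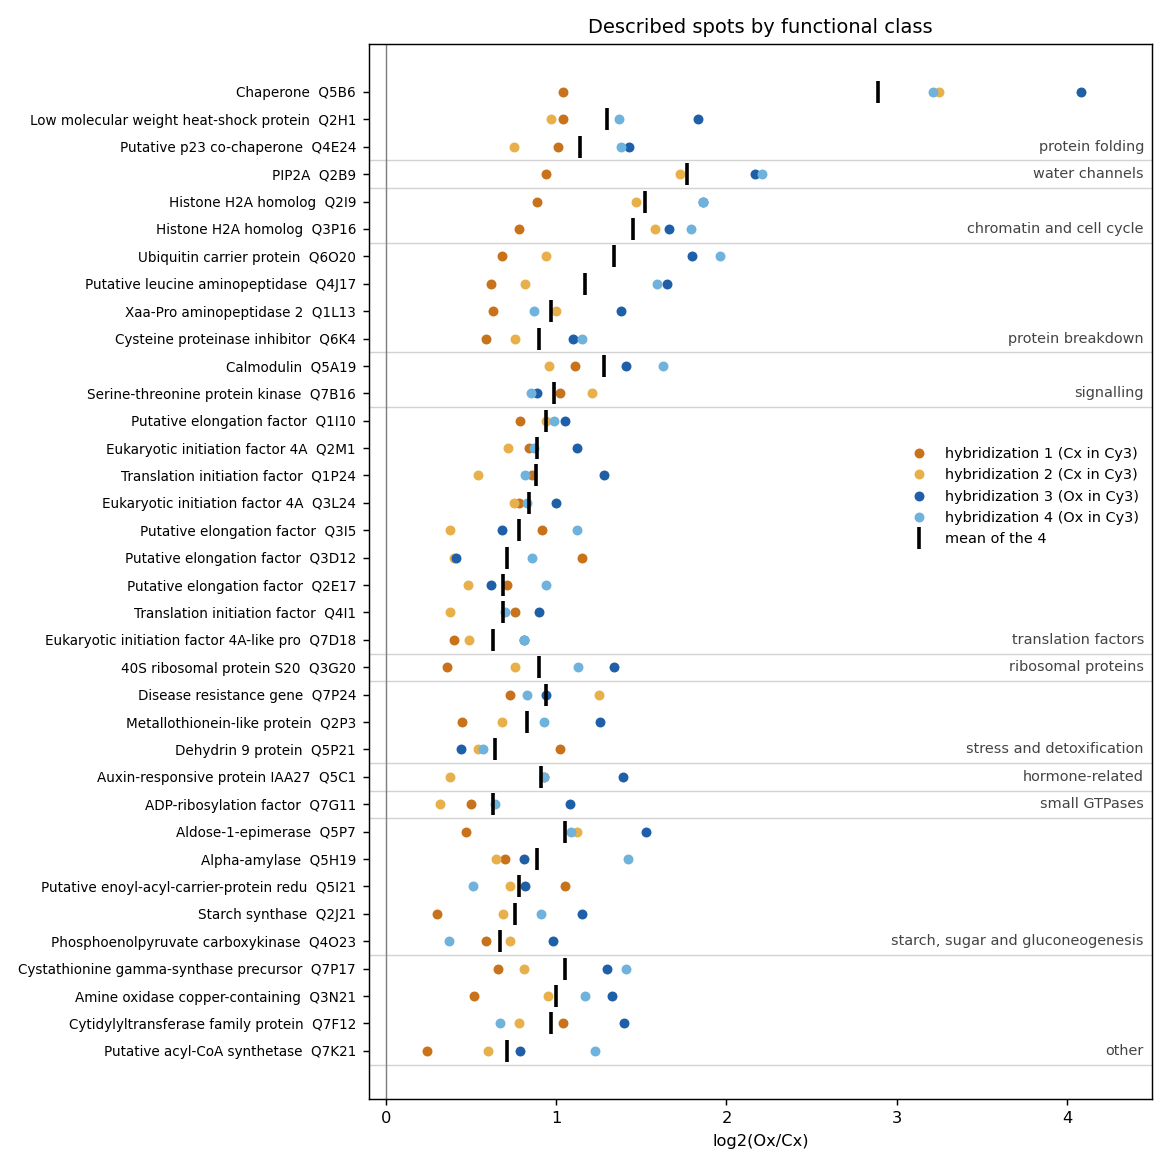
Log2(Ox/Cx) of the 36 described spots by functional class, with a coloured point for each of the 4 hybridizations and a black tick for their mean. The chaperone Q5B6 has the widest spread and the translation factors lie close together between means of 0.63 and 0.94. The class labelled starch, sugar and gluconeogenesis is the study's carbon compound category, and it includes the enoyl reductase Q5I21 of fatty acid synthesis.

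Signalling was represented by 2 clones with opposite dye patterns. The calmodulin-like clone GEM-051-G11 at Q5A19, of the proteins that bind calcium and pass the signal on, had 1.11, 0.96, 1.41 and 1.63, a mean of 1.28 ± 0.30 (SD, n = 4). The serine-threonine protein kinase GEM-071-D09 at Q7B16 had 1.02, 1.21, 0.89 and 0.85, a mean of 0.99 ± 0.16 (SD, n = 4), and was higher with Cx in Cy3. Clones of the same class on the Cx side numbered 5, between -1.02 and -0.67.

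The 3 clones of stress and detoxification had means of 0.94, 0.83 and 0.64. The disease resistance clone GEM-079-F07 at Q7P24 had 0.73, 1.25, 0.94 and 0.83. The metallothionein-like clone GEM-020-C11 at Q2P3, of the small proteins that bind metal ions, had 0.45, 0.68, 1.26 and 0.93. Dehydrin 9 (GEM-054-H11 at Q5P21), of the hydrophilic proteins that accumulate in drying cells, had 1.02, 0.54, 0.44 and 0.57, and its highest value was in hybridization 1, unlike most of the 121 spots. An auxin-responsive protein described as IAA27, of the family that represses auxin-response genes, had 0.93, 0.38, 1.39 and 0.93 (GEM-045-D03 at Q5C1). The ADP-ribosylation factor clone GEM-069-F11 at Q7G11, a small GTPase of vesicle budding, had a mean of 0.63 ± 0.32 (SD, n = 4). The listed Cx side held 5 stress, 3 hormone-related and 3 small GTPase clones.

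Primary metabolism held 5 clones that the study placed in its carbon compound category, with means between 0.67 and 1.053 (median 0.78). These covered starch in both directions. Starch synthase (GEM-025-H07 at Q2J21), which extends the glucan chains, had 0.30, 0.69, 1.15 and 0.91, and alpha-amylase (GEM-053-G04 at Q5H19), which cuts them, had 0.70, 0.65, 0.81 and 1.42. Aldose-1-epimerase, which interconverts the ring forms of sugars, had the highest mean of the group at 1.053 ± 0.44 (SD, n = 4; GEM-094-G04 at Q5P7). Phosphoenolpyruvate carboxykinase (GEM-045-A07 at Q4O23), which starts the path from organic acids back to sugars, had 0.59, 0.73, 0.98 and 0.37. The enoyl-acyl-carrier-protein reductase of fatty acid synthesis (GEM-054-A08 at Q5I21) had 1.047, 0.73, 0.82 and 0.51. The same category held 27 clones on the Cx side, between -2.59 and -0.62, and the 12 energy clones of the listing were all on that side.

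The 4 remaining described clones had means between 0.71 and 1.046. Cystathionine gamma-synthase (GEM-076-D11 at Q7P17), the entry enzyme of methionine synthesis, had 0.66, 0.81, 1.30 and 1.41. A copper amine oxidase (GEM-110-C09 at Q3N21), of the enzymes that oxidise polyamines and release hydrogen peroxide, had 0.52, 0.95, 1.33 and 1.17. A clone of the cytidylyl transferase family (GEM-069-C09 at Q7F12) had a mean of 0.97 ± 0.33 (SD, n = 4), and an acyl-CoA synthetase (GEM-078-F04 at Q7K21), which activates fatty acids, had 0.71 ± 0.41 (SD, n = 4). Since the listing of the Ox side was used only in part, the numbers of clones on both sides cannot be set against each other as shares.

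The label of the tissue was set against the descriptions. Clones for phenylalanine ammonia-lyase, cinnamyl alcohol dehydrogenase, laccase and cellulose synthase, which mark lignifying and wall-building xylem, numbered 11 in the listing of the Cx side, with means between -2.42 and -0.61. Laccase and cellulose synthase belong to a category that the listing of the Ox side used here does not reach, so nothing is read from their absence among the 32 described clones. No description in the part of the listing used named a phloem protein, chlorophyll-binding protein or rubisco. Of the words for dividing cells, histone H2A was found on the Ox side, and a cyclin-dependent protein kinase clone on the Cx side at -1.27.

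Around the limit the choice was close. The lowest 3 of the 121 spots had means of 0.60 (Q6E15), 0.60 (Q5G10, GEM-048-C12) and 0.59 (Q2P22, GEM-026-D07). The first 3 spots below it with all hybridizations above 0 had 0.58 (Q5F7), 0.58 (Q4I20, GEM-043-F04) and 0.57 (Q3G15, GEM-032-G09). Their SDs of 0.11 to 0.40 (n = 4) were far larger than these gaps. In 51 of the 121 spots every hybridization reached the limit by itself.

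The 4 hybridizations did not contribute evenly. The median log2(Ox/Cx) over the 121 spots was 0.68 and 0.69 in hybridizations 1 and 2, and 1.15 and 1.00 in hybridizations 3 and 4, while the median over all spots lay between -0.03 and -0.01 in each. Hybridization 3 was the highest in 66 spots and hybridization 4 in 38. The lowest was hybridization 1 in 63 spots and hybridization 2 in 37. The limit was reached in 75 and 78 spots with Cx in Cy3 and in 114 and 108 spots with Ox in Cy3.

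The difference between dye orientations, taken as the mean with Ox in Cy3 minus the mean with Cx in Cy3, was above 0 in 107 of the 121 spots (88.4%). It was above 0 in 1614 of all 2910 spots (55.5%) and in 151 of the 286 spots lower in Ox (52.8%). Its median was 0.43 in the 121 spots, 0.05 over all spots and 0.03 in the 286. The rule that all hybridizations lie above 0 takes out spots with a large difference between dyes. Of the 9 spots it left out, 6 were higher with Cx in Cy3, and with them counted 110 of 130 spots (84.6%) were higher with Ox in Cy3. The pattern was not confined to spots past the limit. Spots with a mean between 0.30 and 0.585 were higher with Ox in Cy3 in 148 of 184 cases (80.4%), those with a mean of 1 or more in 38 of 39 cases (97.4%), and those with a mean between 0 and 0.30 in 683 of 1193 cases (57.3%).

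**Figure D3:**
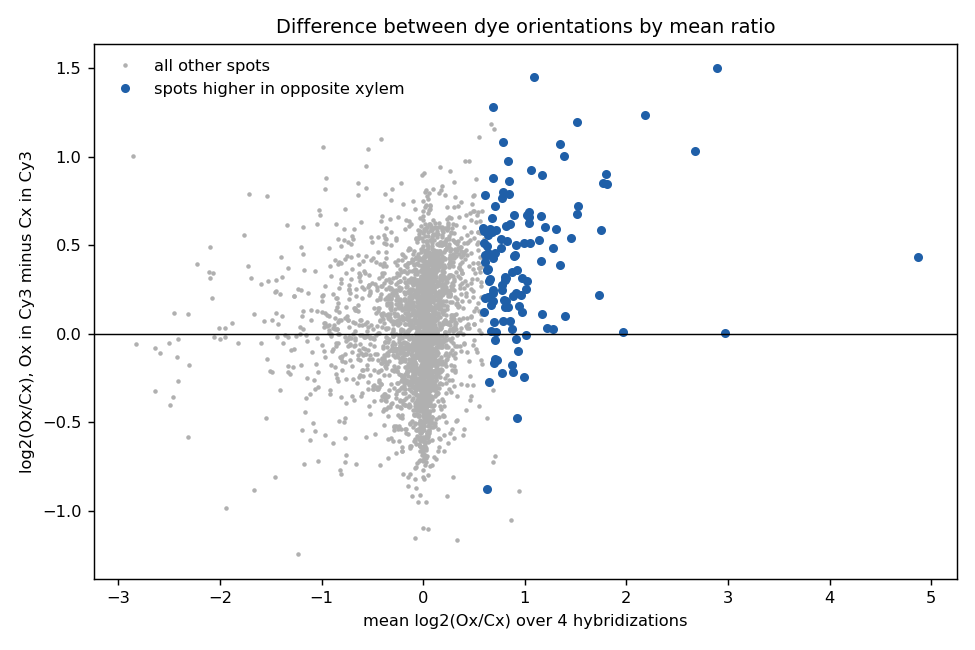
Difference in log2(Ox/Cx) between dye orientations (Ox in Cy3 minus Cx in Cy3, vertical axis) against the mean log2(Ox/Cx) of each of the 2910 spots. The 121 spots higher in opposite xylem (blue) lie above 0 in 107 cases, whereas the other spots (grey) scatter on both sides of 0.

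Both hybridizations with Ox in Cy3 lay above both with Cx in Cy3 in 75 of the 121 spots (62.0%), against 38.0% of all spots. The reverse order was found in 2 of the 121 (1.65%), against 28.4% of all spots. A dye term was tested in a least squares limma fit. The term is orthogonal to the mean that chose the spots, but the demand that all 4 hybridizations lie above 0 limits it. It was called in none of the 121 with an adjusted p of 0.05 or less (Benjamini-Hochberg over 2910 spots, 0.0% called, lowest adjusted p = 0.0629). The call depended on the setting. Fitting only spots in the part of the study's table used kept 76 of the 121, and 13 of those 76 were called. When differences within a tree number were tested, 73 of the 121 were called. The share called over all spots was not taken in either setting, so nothing is read from these counts about the 121. At an unadjusted p under 0.05 in the default fit, the dye term passed in 49 of the 121 spots, against 37.5% of all spots. Passing in either direction was thus about as frequent as elsewhere. The share over all spots is far larger than a p limit of 0.05 alone would give. The absence of adjusted calls therefore does not show that the orientations were alike. With the direction counted, 48 of the 121 (39.7%) passed as higher with Ox in Cy3, against 22.1% of all spots. Each orientation held 2 hybridizations of trees that are not settled, so dye and tree cannot be told apart.

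The dye difference was widest in the chaperone spot Q5B6, at 1.5 between orientation means of 3.64 and 2.144. Spot Q8C2 followed at 1.45, with log2(Ox/Cx) values of 0.15, 0.58, 2.91 and 0.73, and its mean of 1.09 fell to 0.49 without hybridization 3. Spot Q7N8 had 0.02, 0.07, 1.053 and 1.60, and its mean of 0.68 fell to 0.38 without hybridization 4. Neither has a clone name in the tables used, and these 2 were the only named spots whose mean moved by more than 1.5 times when a hybridization was left out. Of the 36 described spots 31 were higher with Ox in Cy3. The exceptions were the kinase Q7B16, the disease resistance clone Q7P24, the enoyl reductase Q5I21, the elongation factor spot Q3D12 and dehydrin Q5P21.

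The spread between hybridizations was far wider than that between the columns taken as duplicate printings on a slide. The duplicates differed by a median of 0.05 in the 121 spots, as over all spots, and by at most 0.48 in any of the 484 pairs. Hybridizations of the same orientation differed in the 121 spots by a median of 0.24 (1 and 2) and 0.31 (3 and 4), against 0.12 and 0.14 over all spots. The SD over the 4 hybridizations had a median of 0.34 in the 121 spots, 0.26 in the 286 spots lower in Ox and 0.20 over all spots. The columns were taken as duplicates because they correlated closely, so their small differences follow in part from that choice. If they are duplicates, they add little to the error of a ratio, and the number of hybridizations sets its precision.

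The spot identifiers were read as positions in printing plates, with Q7H1 as plate 7, row H and column 1. The labels do not state this reading. Such a position was not used by the rule. The first 7 plates held 13 to 21 of the 121 spots each, out of 384, plate 8 held 5 of 183 and plate 9 held 0 of 39. The 16 plate rows held between 2.17% and 6.67%. Column 1 held 15 of its 128 spots (11.7%), from 7 plates, whereas the 23 other columns held 106 of 2782 (3.81%) and between 1.56% and 6.67% each. These 15 included Q7H1, Q3H1, the heat-shock clone at Q2H1, the auxin-responsive clone at Q5C1 and the spots Q2M1 and Q4I1 of initiation factors. Spots lower in Ox made up 12.5% of column 1, within the range of 5.83% to 19.5% over the other columns. The median log2(Ox/Cx) of all spots in column 1 was 0.00. Column 1 was singled out after its count was seen, and the part of position in these ratios was not tested.

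**Figure D4:**
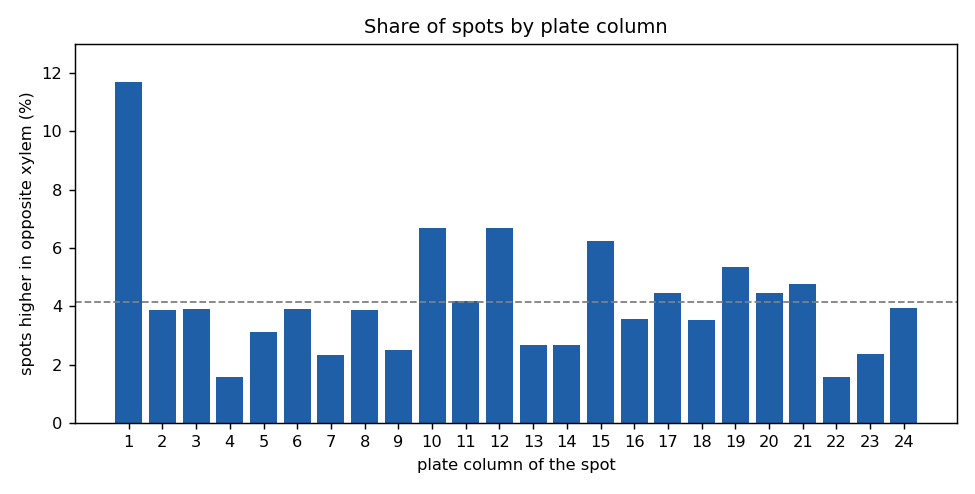
Share of spots higher in opposite xylem (%, vertical axis) in each of the 24 plate columns (horizontal axis), with the share over all spots, 4.16%, as a dashed line. Column 1 stands at 11.7% and every other column at 6.67% or below. Plate columns were read from the spot identifiers.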

How the data were processed

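A 2-colour cDNA array of maritime pine was hybridized with amplified RNA of Cx and Ox. The deposited values are log2 ratios of the dyes, which the authors made from GenePix 6.0 readings with R 2.7.1 and limma 2.14.5 (per the labels and the methods): normexp background correction and normalization within printing blocks, with no scaling between arrays. The file held 2910 spots and 8 columns with 0 missing values, and 0 columns were of unmapped samples. These are more spots than the authors kept, so spots that their intensity filter removed are still in it. Spike controls were printed on the array and may be in it too.

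The sign of the columns with Ox in Cy3 was turned, and duplicates were averaged to 4 hybridizations. The methods describe the order of the dyes in the ratio differently from the deposited sign, so the direction rests on the study's listing of fold changes as Ox over Cx, and not on the dyes. Clones were named by a spot mean equal to the listed value to 6 digits, sign included, as a key only. Rows used were 1999 of the study's table of all spots, of which 1997 spots were matched. Fits were made with R 4.3.3, limma 3.58.1 (200 robust iterations) and statmod 1.5.0 and were tested on simulated data. There the fit of Ox against Cx recovered 91.5% to 96.0% of the changed spots. The dye term recovered only 58.0% to 69.0% of the spots given a dye effect. Both ranges hold only for the effect sizes that were simulated. They do not show what share of spots with the ratios or dye differences found here would be recovered. Sequences were searched with Biopython 1.88. Dye terms used least squares.

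Named were all described clones, the 10 leading undescribed spots, 3 on each side of the limit and 3 each with the widest spread and dye difference. Classes were set by words in the descriptions. The spots and lists were chosen with earlier results of these data known. Fold changes of the study were used only to name clones and to set the direction, and its p-values were not used. Arrays give no counting depth, and their number limits the precision. Alternatives were centring, scaling, other averages, blocks, estimates, filters, limits and leaving out hybridizations or an orientation.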

Additional observations from a re-analysis of the deposited data

How the results depend on the processing

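The rule gave 98 to 155 spots under centring, scaling, other averages, a robust estimate, all 8 columns above 0, hybridizations with Cx in Cy3 alone, and each hybridization left out (106 without hybridization 3, 155 without hybridization 1), against 121. It gave 211 with Ox in Cy3 alone, of which 119 were among the 121, 76 among spots listed in the part of the study's table used, and 39 at a 2-fold limit. Spots called at an adjusted p of 0.05 (limma) were 65 to 133 with a hybridization left out, 200 with Ox in Cy3 alone and 57 among listed spots, against 97. At 0.001 the 6 calls became 73 with tree-number averages, 0 after scaling, 0 in either orientation alone, 1 among listed spots, 22 with least squares, 87 with duplicates as a block and 2 to 13 with a hybridization left out. A dye effect was called in none of the 121 by default, after centring or scaling, and at 0.01. None was called with any hybridization left out, an alternative added after seeing the data. Among listed spots, which include 76 of the 121, it was called in 13. It was called in 73 of the 121 when differences within a tree number were tested, which takes duplicate printings as separate. The share called over all spots was not taken in either setting.

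The tree number as a replicate block gave 130 calls at 0.05 and 123 at 0.001. Columns with the same number did not deviate together (correlations of 0.00, -0.03, -0.02 and -0.01), and the block correlation was -0.689. Since columns averaged as duplicates were nearly equal, these correlations are not separate measurements. They cannot show which tree a column carried. The means of the 54 named spots kept their sign, which the choice of the members fixes for most alternatives, but Q8C2 fell from 1.09 to 0.49 without hybridization 3, and Q7N8 from 0.68 to 0.38 without hybridization 4 and to 0.04 with Cx in Cy3 alone. The median of the stress class ranged from 0.71 to 0.96 with a hybridization left out. The limit is the number of hybridizations, 4.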
